A study of Homo sapiens with 6 samples.

Results

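Secreted proteins that call in or activate leukocytes were followed at the transcript level, 10 in all: the chemokines CXCL1, CXCL2, CXCL3, CXCL5, CXCL8, CCL2 and CCL20, and the cytokines IL6, IL1B and CSF2. They were taken by name, with earlier results of these data known. Of these 10 genes, 9 were in the deposited tables of 19876 gene symbols, and 8 had enough reads to test. IL1B was not analysed here, and CXCL5 was too low to test. The cells were labelled as A549, an established line from a human lung adenocarcinoma, with the genotype WT, grown in DMEM with serum. One group of 3 libraries came from cells given rhTR11B and the other 3 from cells given phosphate-buffered saline (PBS) as the negative control. TR11B stands for TNFRSF11B, also known as osteoprotegerin, which is secreted and acts as a decoy receptor. The labels spell out neither rhTR11B nor its dose or time, and the study used a single cell line.

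The libraries went against their cell line label. A549 is known for abundant aldo-keto reductases and for a deletion that removes CDKN2A and its neighbour MTAP. AKR1C2 had at most 1 count and AKR1C3 at most 3 counts in any library. CDKN2A had 1593 to 2030 counts with rhTR11B and 2036 to 2310 counts with PBS. MTAP had 1568 to 1724 counts with rhTR11B and 1719 to 2013 counts with PBS. The epithelial markers EPCAM, KRT19 and CDH1 reached at most 10, 5 and 1 counts, whereas the keratins KRT8 and KRT18 had 31538 to 36616 and 23189 to 26955 counts over all libraries. The mismatch was present in all 6 libraries, and which line the RNA came from was not tested. AKR1C3, CDKN2A and MTAP were looked up after the other markers had been seen.

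Chemokines are small secreted proteins that steer leukocytes along a concentration gradient. CXCL1, CXCL2, CXCL3, CXCL5 and CXCL8 attract neutrophils through the receptor CXCR2, and CXCL8 also through CXCR1. CCL2 attracts monocytes through CCR2, and CCL20 attracts CCR6-bearing lymphocytes and dendritic cells. IL6 signals through IL6R and IL6ST, and CSF2 (GM-CSF) drives the growth and activation of myeloid cells. Epithelial and tumour cells make many of these proteins when NF-kB or AP-1 is activated, and their transcripts are known for fast decay.

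The 5 CXC genes lie together on chromosome 4 between 73740569 and 74099195 (GRCh38.p14), a span of 358.6 kb. CCL2 lies on chromosome 17 (34255285 to 34257203), CCL20 on chromosome 2 (227813842 to 227817556), IL6 on chromosome 7 (22727200 to 22731998) and CSF2 on chromosome 5 (132073789 to 132076170). The table of RefSeq promoters on GRCh38.p14 held 9 of the 10 genes, all but CCL2. The 140 bases that end just before the start of each gene are shown for the 7 members with a match to GGNNTTTCC, a pattern typical of NF-kB binding sites, because they show what the promoters of these genes have in common. Each is read 5′ to 3′ in the direction of the gene, with matches on either strand in capitals.
CXCL1 (chr4:73869253-73869392, plus strand): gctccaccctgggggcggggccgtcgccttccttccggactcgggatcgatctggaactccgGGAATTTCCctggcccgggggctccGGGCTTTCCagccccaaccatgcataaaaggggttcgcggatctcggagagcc
CXCL2 (chr4:74099196-74099335, minus strand): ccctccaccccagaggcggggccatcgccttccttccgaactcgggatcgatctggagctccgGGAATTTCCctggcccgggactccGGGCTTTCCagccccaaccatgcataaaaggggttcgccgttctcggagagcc
CXCL3 (chr4:74038690-74038829, minus strand): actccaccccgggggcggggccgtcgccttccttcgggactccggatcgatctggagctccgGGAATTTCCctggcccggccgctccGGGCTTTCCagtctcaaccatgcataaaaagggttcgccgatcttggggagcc
CXCL5 (chr4:73998678-73998817, minus strand): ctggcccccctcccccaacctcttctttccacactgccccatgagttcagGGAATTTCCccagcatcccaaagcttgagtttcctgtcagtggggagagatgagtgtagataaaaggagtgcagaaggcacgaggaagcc
CXCL8 (chr4:73740429-73740568, plus strand): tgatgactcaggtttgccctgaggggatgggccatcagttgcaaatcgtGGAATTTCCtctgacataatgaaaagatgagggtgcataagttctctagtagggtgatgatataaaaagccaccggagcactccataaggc
CCL20 (chr2:227813702-227813841, plus strand): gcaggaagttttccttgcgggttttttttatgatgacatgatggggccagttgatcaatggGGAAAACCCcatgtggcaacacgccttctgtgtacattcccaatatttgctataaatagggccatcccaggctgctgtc
IL6 (chr7:22727060-22727199, plus strand): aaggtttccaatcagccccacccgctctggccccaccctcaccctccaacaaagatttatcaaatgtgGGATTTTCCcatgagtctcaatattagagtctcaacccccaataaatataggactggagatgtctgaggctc

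CXCL1, CXCL2 and CXCL3 each held 2 matches, GGAATTTCC and, nearer to the start, GGGCTTTCC. The first lay 78 to 70 bases before the start in CXCL1 and CXCL3 and 77 to 69 bases before it in CXCL2, and the second 53 to 45 bases before it in all 3. These 3 promoters are near copies: an unbroken run of 23 identical bases in all 3 spans the first match, and CXCL1 and CXCL2 share a run of 42 bases. CXCL5 and CXCL8 each held GGAATTTCC once, IL6 held GGATTTTCC, and CCL20 held its match on the opposite strand. Over the 250 bases before the start, 7 of the 9 members with a promoter had a match, while IL1B and CSF2 had none. Of 35116 promoters searched over the same length, 5.48% had one. The pattern was chosen after the members' sequences were seen, and 3 of the 7 promoters are near copies. The contrast is therefore description only. The pattern TGANTCA, typical of AP-1 sites, matched in CXCL8 as TGACTCA, 137 to 131 bases before the start, and occurs in 6.57% of all promoters. A letter match is a description and does not show that a factor binds there.

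**Figure D1:**
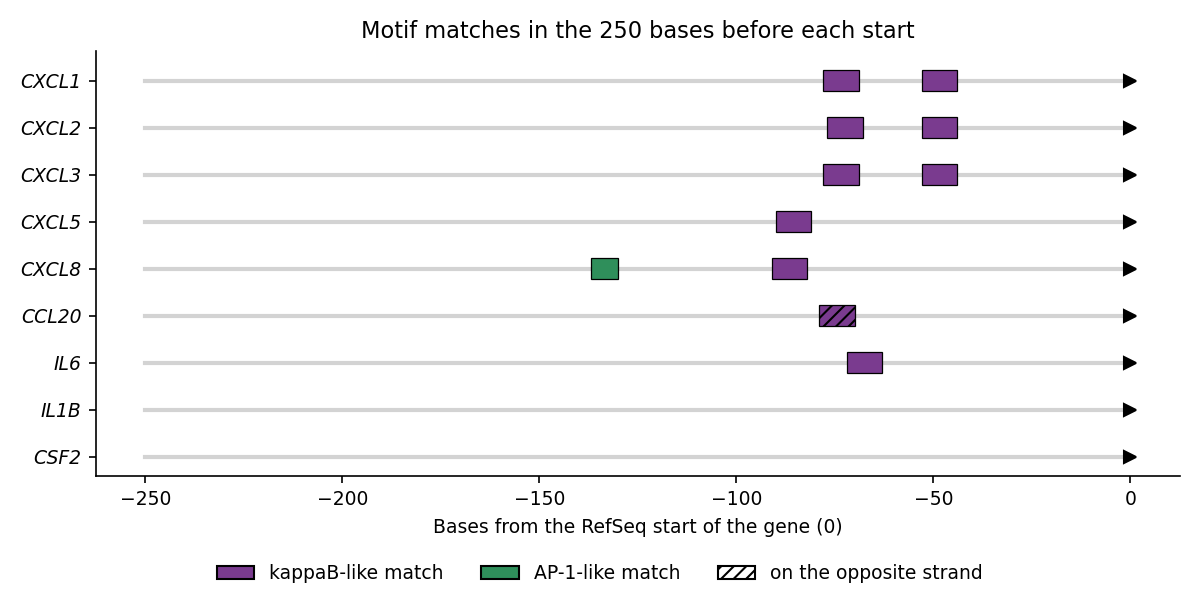
Matches to GGNNTTTCC (purple, NF-kB-like) and TGANTCA (green, AP-1-like) in the 250 bases before the RefSeq start of 9 members, with distance from the start on the x axis in bases. CXCL1, CXCL2 and CXCL3 carry their 2 purple matches at almost the same distances, CXCL8 alone carries a green one, and IL1B and CSF2 carry none.

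In cells given rhTR11B the monocyte chemokine CCL2 rose, and the other 7 tested members had positive fold changes that did not pass. A gene was called at a Benjamini-Hochberg adjusted p under 0.05 in edgeR's quasi-likelihood test over all 13567 genes with enough reads. By this rule 1 of the 8 members was called higher, where 2.92% of all tested genes were, and 0 were called lower, where 0.678% were. At an unadjusted p under 0.05, 5 of the 8 members stood higher, where 13.8% of all tested genes did, and 0 lower, where 10.3% did. DESeq2 called 3 members higher and 0 lower, where it called 5.45% of the same 13567 genes higher and 2.65% lower. It gave CSF2 no adjusted p. The members were chosen with earlier results of these data known, so these shares are description only. Over the 8 members the median was 0.32 on the log2 scale, against 0.00 over all tested genes. In 3 members, CCL2, CXCL1 and CCL20, every rhTR11B library lay above every PBS library, as it did for 15.1% of all tested genes. RNA from whole cultures cannot tell more producing cells from more RNA in each cell.

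Library totals ran from 36315751 to 36992958 counts with rhTR11B and from 37203313 to 38148838 counts with PBS. Levels below are CPM, counts scaled by the TMM-adjusted total of their library, and errors are SD over 3 libraries. Other measures moved with the groups. The 13 mitochondrially encoded genes took 7.88% to 10.4% of counts with rhTR11B and 6.63% to 7.71% with PBS, and 82 ribosomal protein genes took 3.85% to 4.57% with rhTR11B and 5.00% to 5.15% with PBS. On the first principal component of all tested genes, rhTR11B replicate 3 stood farthest to one side, at 25.7, and PBS replicate 2 farthest to the other, at -18.4. Of 5 leukocyte markers in the table, LYZ and CSF1R had at most 2 and 1 counts. The other 3 were tested, and edgeR called 0 of them. DESeq2 gave CD68 an adjusted p of 0.404 but gave CD14 and ITGAM none, so it could not have called those. CD68 had a log2 fold change of 0.27, CD14 of 0.43 and ITGAM of 0.73 (edgeR adjusted p = 0.366, 0.617 and 0.258). The 5 summed to 4.31 to 5.39 CPM with rhTR11B and 2.99 to 4.38 CPM with PBS. Of 10 fibroblast and endothelial markers in the table, 2 were tested, of which edgeR called 0 and DESeq2 called COL1A1 higher. Over all tested genes, edgeR called 2.92% higher and DESeq2 5.45%. COL1A1, a collagen chain, had 178, 203 and 138 counts with rhTR11B, against 125, 99 and 126 counts with PBS. Its groups did not overlap, with rhTR11B above, as in 15.1% of all tested genes. The log2 fold change was 0.62 (SE 0.17, edgeR adjusted p = 0.0511, 0.0242 by DESeq2 and 0.257 by limma-trend with no low-level filter). ACTA2, the other tested marker, had a log2 fold change of 0.09 (edgeR adjusted p = 0.904), and DESeq2 gave it no adjusted p. Untested markers included LUM, with 6, 27 and 11 counts with rhTR11B against 6, 2 and 8 counts with PBS. COL3A1 had 10, 10 and 4 counts with rhTR11B against 5, 4 and 6 with PBS, and CDH5 6, 9 and 6 against 4, 13 and 4. DCN, PDGFRA, PDGFRB, PECAM1 and VWF had at most 2 counts in any library. The 10 markers summed to 5.72 to 7.40 CPM with rhTR11B and 3.84 to 5.13 CPM with PBS. The part of these differences in the results below was not tested.

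CCL2 was the most abundant member. It had 226, 254 and 278 CPM in rhTR11B replicates 1, 2 and 3, against 204, 174 and 175 CPM in PBS replicates 1, 2 and 3. The groups did not overlap, and PBS replicate 1 came nearest to the treated libraries. The means were 253 ± 26.1 CPM with rhTR11B and 184 ± 17.4 CPM with PBS (SD, n = 3 each), a 1.37-fold difference (log2 fold change 0.46, SE 0.08, edgeR adjusted p = 0.00561). With 6667 to 9921 counts per library, counting error was about 1.11% of the level, while the libraries of a group varied by 10.3% with rhTR11B and 9.45% with PBS. The spread between libraries, and not depth, therefore set the precision. The call depended on the PBS libraries: edgeR's adjusted p was 0.0717 without PBS replicate 2 and 0.123 without PBS replicate 3. The log2 fold changes were 0.41 and 0.42. In these 2 fits, calls over all genes fell from 488 to 23 and 12, so the loss was not particular to CCL2. CCL2 passed with each of the other 4 libraries left out (edgeR adjusted p up to 0.0129). Its lowest log2 fold change with 1 library left out was 0.38.

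**Figure D2:**
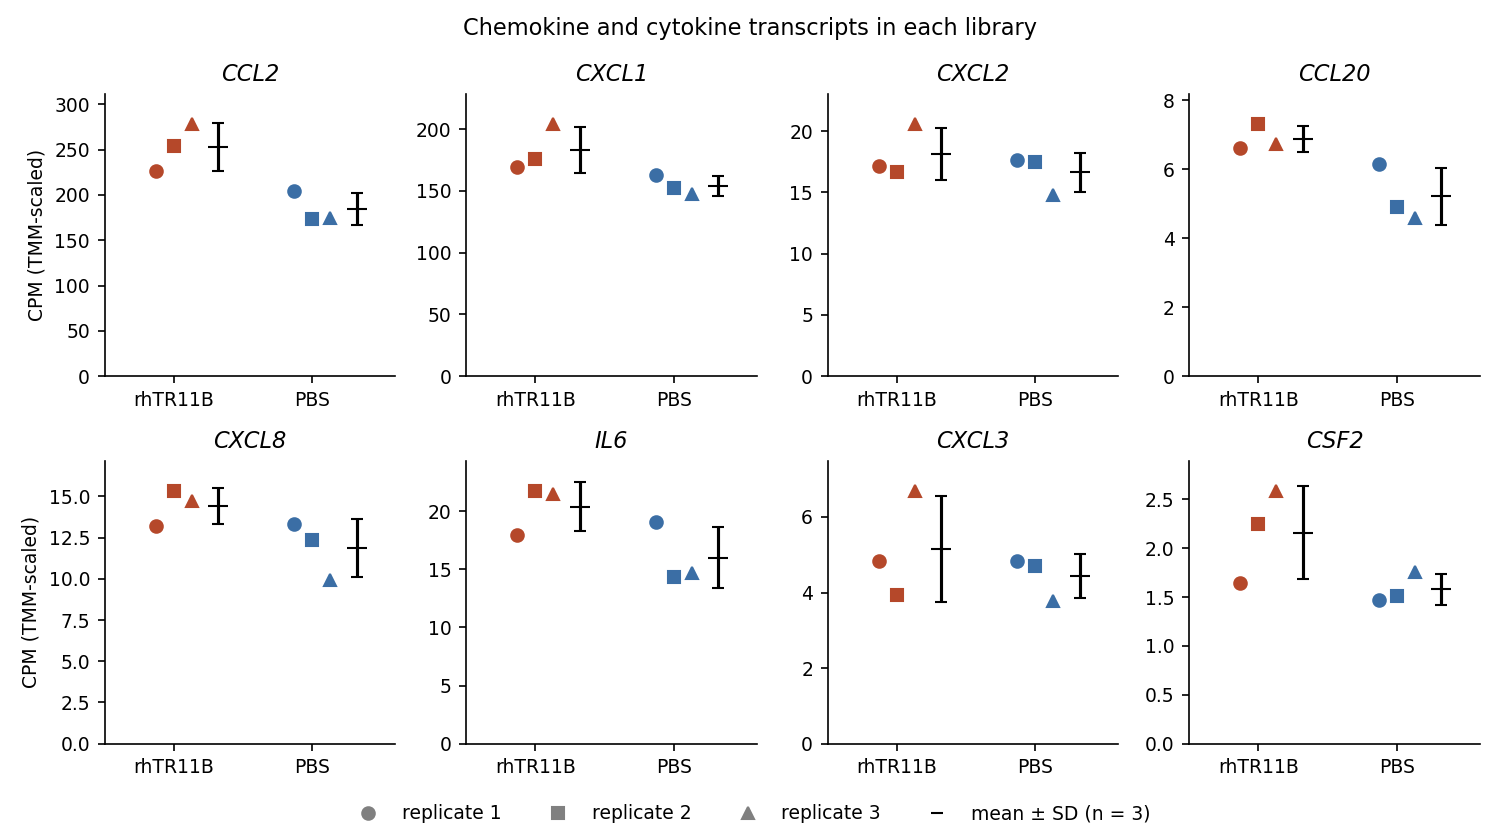
CPM of the 8 tested members in each library, rhTR11B left and PBS right in every panel, with the mean ± SD of 3 libraries as a bar beside the points; the y axes start at 0 and differ between genes. In CCL2, CXCL1 and CCL20 all rhTR11B points lie above all PBS points, and in the other 5 genes the groups overlap.

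The neutrophil chemokines did not pass the test. CXCL1, by far the most abundant of them, had 169, 176 and 204 CPM in rhTR11B replicates 1 to 3, against 163, 152 and 147 CPM in PBS replicates 1 to 3. All treated libraries lay above all PBS libraries, though rhTR11B replicate 1 and PBS replicate 1 were close. The log2 fold change was 0.25 (SE 0.07), with an edgeR adjusted p of 0.0539, just outside the threshold, and of 0.0197 by DESeq2. CXCL1 passed in 4 of 10 other settings, where its highest adjusted p was 0.284, by limma-trend with no low-level filter. With 1 library left out, it passed edgeR's test in 1 of 6 fits. There the adjusted p reached 0.223 and the log2 fold change fell as low as 0.16.

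CXCL8 (interleukin 8) had 13.2, 15.3 and 14.7 CPM in rhTR11B replicates 1 to 3, against 13.3, 12.3 and 9.95 CPM in PBS replicates 1 to 3. Only rhTR11B replicate 1 fell within the PBS range (log2 fold change 0.28, SE 0.11, edgeR adjusted p = 0.125). CXCL2 had 17.2, 16.6 and 20.6 CPM with rhTR11B, against 17.6, 17.5 and 14.8 CPM with PBS. In CXCL2 the groups overlapped, with 2 of the 3 treated libraries below 2 PBS libraries (log2 fold change 0.12, SE 0.10, adjusted p = 0.459). CXCL3 had 4.83, 3.94 and 6.68 CPM with rhTR11B, against 4.84, 4.70 and 3.78 CPM with PBS (log2 fold change 0.21, SE 0.18, edgeR adjusted p = 0.490). Its positive sign rested on rhTR11B replicate 3, since the log2 fold change was -0.02 without it. CXCL5 had 0 counts in all 3 rhTR11B libraries and 0, 0 and 1 counts in PBS replicates 1 to 3. A count of 0 allows up to 3 counts, or 0.0842 CPM, in the shallowest of the rhTR11B libraries, and this limit covers counting error only. CXCL5 was thus not detectable with rhTR11B at this depth, although its promoter carries the same GGAATTTCC as those of CXCL1 and CXCL8.

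CXCL1, CXCL2 and CXCL3 resemble each other in transcript as well as promoter. Of all stretches of 50 bases in their longest GENCODE 29 coding transcripts, 5.73% in CXCL1, 9.24% in CXCL2 and 5.26% in CXCL3 also occur in a transcript of another of the 3, so some reads may have been split or lost among them. CCL2, CCL20, CXCL8, IL6 and CSF2 shared no such stretch with any other gene. CXCL1 took 88.2% to 89.5% of the counts of the 3 genes with rhTR11B and 87.3% to 88.8% with PBS, ranges that overlap.

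CCL20 had 6.61, 7.32 and 6.73 CPM in rhTR11B replicates 1 to 3, against 6.15, 4.91 and 4.59 CPM in PBS replicates 1 to 3. The groups did not overlap, yet the difference did not pass (log2 fold change 0.40, SE 0.13, edgeR adjusted p = 0.0841). With 175 to 273 counts per library, counting error alone was about 6.67% of its level.

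IL6 had 18.0, 21.7 and 21.5 CPM in rhTR11B replicates 1 to 3, against 19.0, 14.3 and 14.6 CPM in PBS replicates 1 to 3. PBS replicate 1 lay above rhTR11B replicate 1, so the groups overlapped. The log2 fold change was 0.35 (SE 0.11, edgeR adjusted p = 0.0663), with an adjusted p of 0.0412 by DESeq2. Leaving out PBS replicate 2 gave 0.28 (edgeR adjusted p = 0.263) and leaving out PBS replicate 1 gave 0.49 (0.0298), the lowest and the highest of the 6 such values, and IL6 passed without rhTR11B replicate 1 as well (0.0191). An antisense gene, IL6-AS1, overlaps IL6 by 421 bases, and without a stated strand setting reads in the overlap cannot be assigned to one of them. IL6-AS1 had 19, 29 and 15 counts in rhTR11B replicates 1 to 3, against 27, 34 and 37 counts in PBS replicates 1 to 3. Its log2 fold change of -0.58 (SE 0.33, edgeR adjusted p = 0.299) had the opposite sign to that of IL6 and did not pass.

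CSF2 was the lowest of the tested members. It had 60, 84 and 92 counts in rhTR11B replicates 1 to 3, or 1.65, 2.25 and 2.58 CPM, against 55, 58 and 67 counts in PBS replicates 1 to 3, or 1.47, 1.51 and 1.76 CPM. Only rhTR11B replicate 1 fell within the PBS range. Its log2 fold change of 0.45 was close in size to that of CCL2, but its SE was 0.23 (edgeR adjusted p = 0.240). Counting error was about 12% of its level, and the treated libraries varied by 22%.

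The same libraries tended to be high or low across the members. Among the PBS libraries, replicate 1 was the highest in 7 of the 8 tested members, and replicate 3 the lowest in 5. Among the rhTR11B libraries, replicate 1 was the lowest in 6 members and replicate 3 the highest in 5. The summed counts of the 9 genes made up 0.0453%, 0.0501% and 0.0545% of rhTR11B replicates 1, 2 and 3, against 0.0432%, 0.0386% and 0.0371% of PBS replicates 1, 2 and 3. CCL2 and CXCL1 alone gave 86.5% to 86.9% of these counts with rhTR11B and 85.5% to 86.7% with PBS, so the sum mostly restates those 2 genes.

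**Figure D3:**
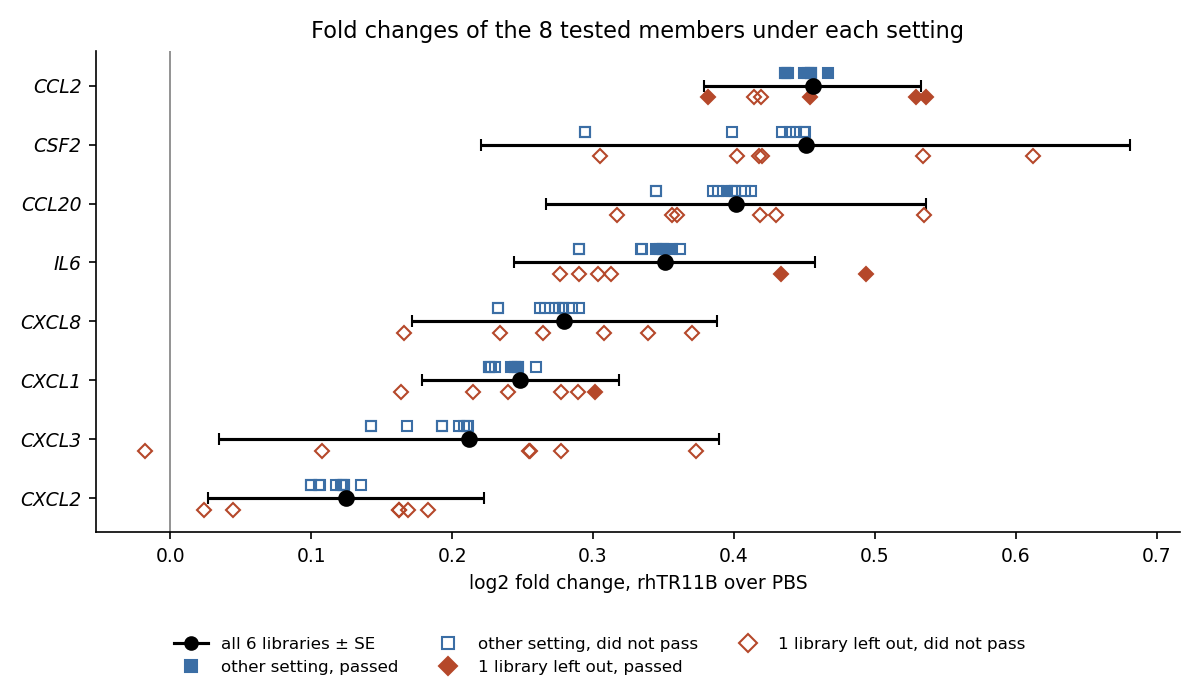
Log2 fold change of rhTR11B over PBS for the 8 tested members, with the value from all 6 libraries and its SE in black, other settings as squares above it and fits without 1 library as diamonds below it; filled symbols had an adjusted p under 0.05. All symbols lie right of 0 except CXCL3 without rhTR11B replicate 3, and only CCL2 is filled under most settings.

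As deposited FPKM, a depth-scaled count per kilobase of gene length, the members had the same order of levels in both groups. CCL2 had 339 ± 33.3 FPKM with rhTR11B and 250 ± 23.6 FPKM with PBS (SD, n = 3 each). CXCL1 had 155 ± 14.3 FPKM with rhTR11B and 132 ± 7.23 FPKM with PBS. These 2 genes stood clear of the rest, since the next, CXCL2, had 16.1 ± 1.72 FPKM with rhTR11B and 15.0 ± 1.55 FPKM with PBS, so that CXCL1 was 9.60-fold above it with rhTR11B and 8.81-fold with PBS. CCL20, CXCL8 and IL6 followed at 8.21, 6.96 and 6.62 FPKM with rhTR11B and at 6.29, 5.81 and 5.26 FPKM with PBS. Over the libraries of a group, the ranges of CXCL8 and IL6 overlapped in both groups, those of IL6 and CXCL3 with rhTR11B, and those of CCL20 and CXCL8 with PBS. All other neighbours in the order were separate. CXCL3 came next with 4.75 ± 1.23 FPKM with rhTR11B and 4.16 ± 0.560 FPKM with PBS, and CSF2 was last with 2.72 ± 0.587 FPKM with rhTR11B and 2.01 ± 0.189 FPKM with PBS. The middle of the order depended on the length used. The deposited FPKM of IL6 rests on 3061 bases, while its longest GENCODE 29 coding transcript has 1527. On transcript lengths, a scaling chosen after the data had been seen, IL6 had 13.3 ± 1.41 with rhTR11B and 10.5 ± 1.73 with PBS, above CXCL8 and CCL20 in both groups. By their means, the places of CCL2, CXCL1, CXCL2, CXCL3 and CSF2 were the same on both lengths. On transcript lengths, however, the ranges of CXCL2 and IL6 overlapped in both groups.

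**Figure D4:**
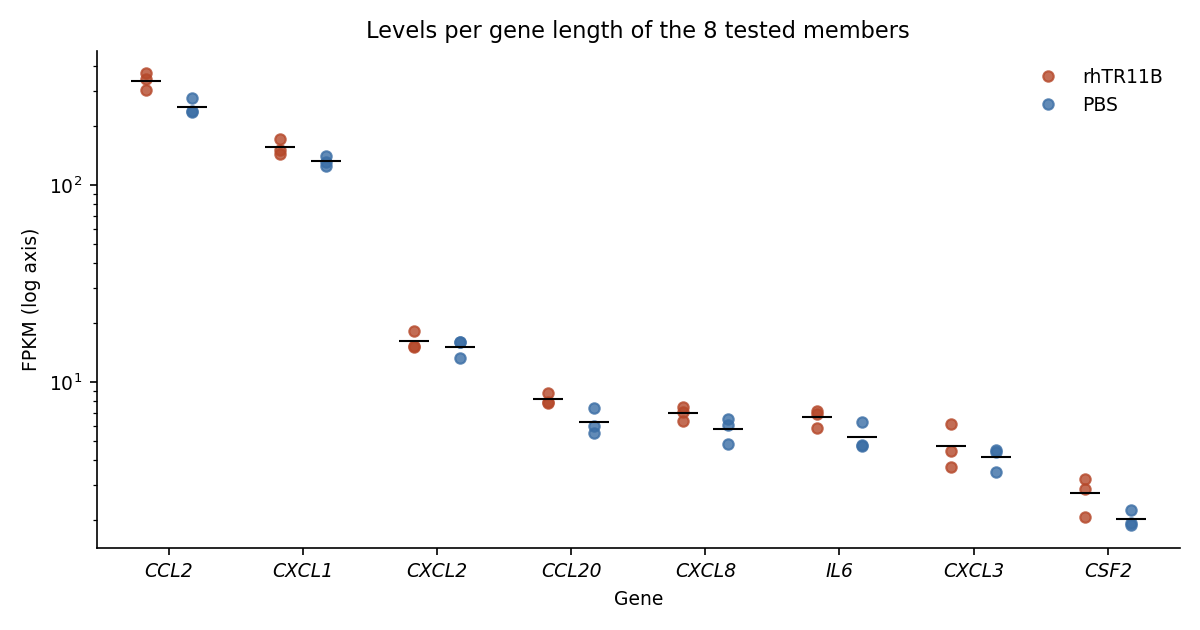
FPKM of the 8 tested members on a log axis, 1 point per library with rhTR11B left of PBS, and a black dash at each mean. CCL2 and CXCL1 stand above 100 FPKM in every library and the other 6 members below 20.

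Among the receptors of these ligands, CXCR2 and CCR6 had at most 1 count in any library. CXCR1 and CCR2 were not analysed here. Of 14 listed receptors and decoys 8 were in the table and 4 were tested, with 0 called by edgeR, 1 higher at an unadjusted p under 0.05 and 1 higher by DESeq2. Over all tested genes, 2.92%, 13.8% and 5.45% were higher by these 3 rules. IL6ST, the shared signalling chain of the IL6 family, was abundant, with 359, 387 and 402 CPM with rhTR11B, against 356, 371 and 324 CPM with PBS (log2 fold change 0.13, edgeR adjusted p = 0.242). IL6R, the chain that binds IL6 itself, had 4.06, 4.21 and 4.80 CPM with rhTR11B, against 4.01, 3.22 and 3.60 CPM with PBS, a difference that did not pass (adjusted p = 0.297). IL1RAP, the accessory chain of the interleukin 1 receptor, had 14.8, 15.5 and 16.1 CPM with rhTR11B, against 12.7, 12.2 and 12.8 CPM with PBS. Its groups did not overlap, as in 15.1% of all tested genes (log2 fold change 0.30, SE 0.09, edgeR adjusted p = 0.0574, and 0.0401 by DESeq2). By limma-trend on log2(FPKM + 1) with a low-level filter, the adjusted p of IL1RAP was 0.167.

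Of the other chemokines, 13 of 30 listed were in the table, 4 were tested, and 1 rose by edgeR, with 2 higher at an unadjusted p under 0.05 and 2 higher by DESeq2. The shares over all tested genes were 2.92%, 13.8% and 5.45%. The transmembrane chemokine CX3CL1 (fractalkine) had 4.17, 5.84 and 4.97 CPM with rhTR11B, against 3.10, 3.195 and 2.49 CPM with PBS, a 1.70-fold difference (log2 fold change 0.77, SE 0.17, edgeR adjusted p = 0.0235). CXCL6, a further neutrophil chemokine that binds CXCR2, had 5.32, 6.57 and 6.15 CPM with rhTR11B, against 4.81, 4.05 and 3.73 CPM with PBS. Its groups did not overlap, as in 15.1% of all tested genes (log2 fold change 0.52, SE 0.15, edgeR adjusted p = 0.0531, and 0.0290 by DESeq2). By limma-trend on log2(FPKM + 1) with a low-level filter, the adjusted p of CXCL6 was 0.0672. CXCL16 and CCL28 had log2 fold changes of 0.27 and 0.20 and did not pass (adjusted p = 0.207 and 0.258).

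Of the other cytokines, 21 of 26 listed were in the table, 13 were tested, 4 rose and 0 fell, with 4 higher and 0 lower by DESeq2. Over all tested genes, edgeR called 2.92% higher and DESeq2 5.45%. At an unadjusted p under 0.05, 9 stood higher and 0 lower, against 13.8% and 10.3% of all tested genes. Among the 9 was IL4I1, which encodes an enzyme and not a cytokine. This list too was chosen with earlier results known, so its shares are description only. EBI3, a subunit of the heterodimers IL27 and IL35, had the smallest p, at 41.0, 40.6 and 50.7 CPM with rhTR11B, against 34.97, 24.3 and 28.0 CPM with PBS (log2 fold change 0.60, SE 0.11, edgeR adjusted p = 0.00838). CSF1, the growth factor of macrophages, had 53.8, 50.4 and 63.6 CPM with rhTR11B, against 45.6, 39.7 and 42.5 CPM with PBS (log2 fold change 0.39, SE 0.08, edgeR adjusted p = 0.0187). LTB (lymphotoxin beta) and TNF rose by 0.55 and 0.26 on the log2 scale (edgeR adjusted p = 0.0145 and 0.0474). Their median was 0.28 on the log2 scale, against 0.00 over all tested genes. CX3CL1 and these 4 genes had adjusted p from 0.0785 to 0.219 without PBS replicate 2 and from 0.130 to 0.197 without PBS replicate 3. Without rhTR11B replicate 2, edgeR's adjusted p was 0.0643 for CX3CL1 and 0.0747 for TNF. TNF also missed the threshold without rhTR11B replicate 3 (0.0620), at a mean of at least 5 CPM (0.0557) and when scaled by library size alone (0.0579). In limma-trend on log2 FPKM with a low-level filter, CX3CL1, CSF1 and TNF missed it (adjusted p from 0.0661 to 0.0932). EBI3 and LTB passed there. Limma-trend with no filter passed none of CX3CL1 and these 4 genes (adjusted p from 0.246 to 0.262).

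None of the 16 transcription factors and 15 decay factors listed passed the test. The transcription factors, among them the NF-kB subunit NFKB2, gave 0 calls by edgeR, 0 by DESeq2 and 0 at an unadjusted p under 0.05. Their median was -0.01 on the log2 scale. Over all tested genes, edgeR called 3.6% in either direction, and DESeq2 called 5.45% higher and 2.65% lower. At an unadjusted p under 0.05, 13.8% stood higher and 10.3% lower. In lists this short, 0 calls by edgeR lies close to its share over all genes. NFKBIZ, an NF-kB cofactor known for its role at the IL6 gene, had 30.5, 31.3 and 34.8 CPM with rhTR11B, against 29.7, 28.9 and 28.6 CPM with PBS (log2 fold change 0.15, SE 0.07, edgeR adjusted p = 0.219). JUN, an AP-1 subunit, had a log2 fold change of -0.11 (SE 0.07, adjusted p = 0.339). The groups did not overlap in NFKBIZ, higher with rhTR11B, or in JUN, lower with it, as in 15.1% and 14% of all tested genes. The factors that set the decay of cytokine transcripts gave 0 calls by edgeR, 0 by DESeq2 and 1 higher at an unadjusted p under 0.05, with a median of -0.05. The nearest was ZFP36L1, a decay factor that binds AU-rich elements, at 0.16 (SE 0.06, adjusted p = 0.135). ZFP36L1, higher with rhTR11B, and DUSP1, lower at -0.15 (edgeR adjusted p = 0.263), also had groups that did not overlap.

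Of the genes for the processing and release of interleukin 1 and interleukin 18, 6 were tested, with 0 calls by edgeR, 1 higher by DESeq2 and 2 higher at an unadjusted p under 0.05. DESeq2 gave CASP1 no adjusted p. The shares of higher genes over all those tested were 2.92%, 5.45% and 13.8%. IL18BP, which binds and blocks interleukin 18, had 19.7, 20.8 and 23.7 CPM with rhTR11B, against 18.8, 15.8 and 16.5 CPM with PBS (log2 fold change 0.32, SE 0.09, edgeR adjusted p = 0.0539). CASP1, the protease that matures interleukin 1 beta, had 20, 70 and 32 counts with rhTR11B, against 24, 10 and 22 counts with PBS. The groups overlapped, and rhTR11B replicate 2 stood far above the rest (log2 fold change 1.17, SE 0.43, edgeR adjusted p = 0.107). Without that library the log2 fold change of CASP1 was 0.55 (adjusted p = 0.500), and without rhTR11B replicate 1 it was 1.49 (0.0288).

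**Figure D5:**
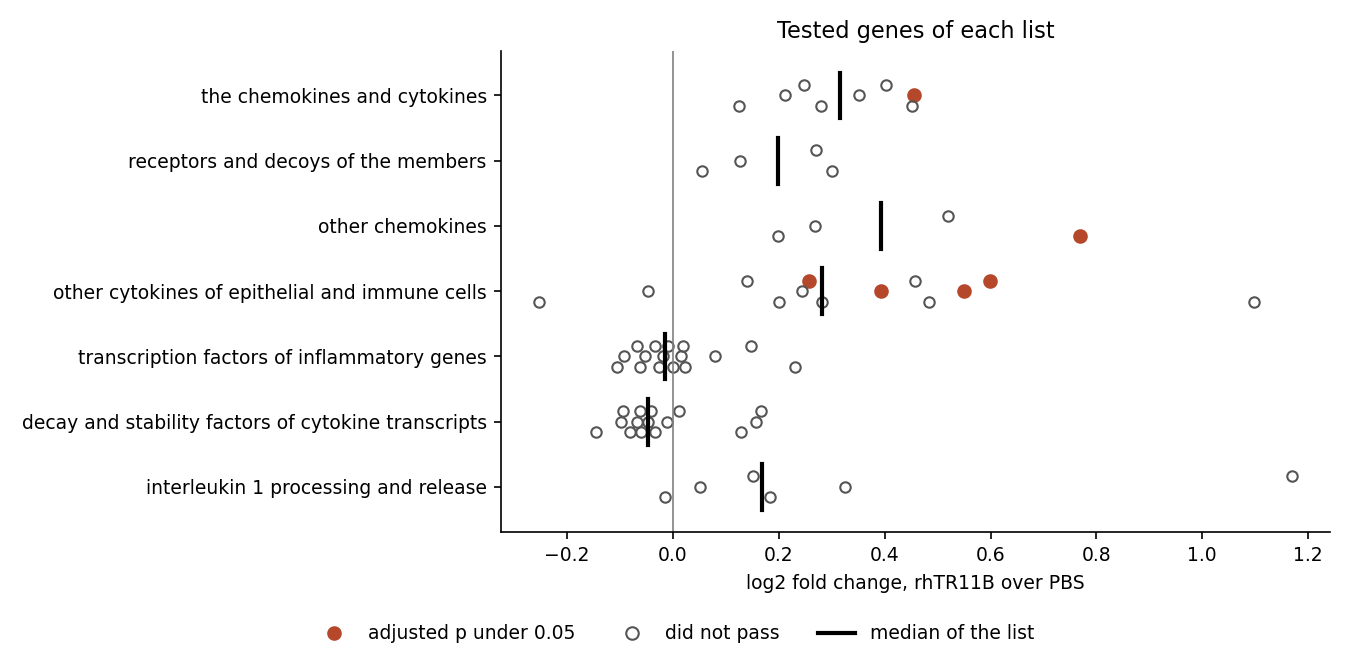
Log2 fold change of rhTR11B over PBS for the tested genes of 7 lists, 1 point per gene, filled where the adjusted p was under 0.05, with a black line at each list's median. The lists of chemokines and cytokines sit mostly right of 0, with medians of 0.32, 0.39 and 0.28. The receptors and the interleukin 1 genes have medians of 0.20 and 0.17. The transcription factors and the decay factors centre at -0.01 and -0.05. A positive median was not particular to chemokines and cytokines. It was 0.43 over 3 tested leukocyte markers and 0.36 over 2 tested fibroblast and endothelial markers, lists not drawn.

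Over the 6 libraries, the log2 CPM profiles closest to that of CCL2 among 10372 genes of at least 5 CPM belonged to CLMN, CCNL2, PCYOX1, AP1G2 and ERAP2, with Pearson's r from 0.997 to 0.998. Those closest to IL6 were NMRK1, LINC-PINT, CNST, TMEM42 and TMEM256, with r from 0.985 to 0.991. The 2 sets held no gene in common. These values describe likeness over 6 libraries that differ together in composition, and with so many genes high values of r are to be found by search. TNFRSF11B, the gene that the name TR11B refers to, had 270, 230 and 269 counts with rhTR11B, against 289, 217 and 202 counts with PBS (log2 fold change 0.18, SE 0.15, edgeR adjusted p = 0.479).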

How the data were processed

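RNA sequencing of 6 libraries, 3 given rhTR11B and 3 given PBS, grouped by the labels' titles, was analysed from the deposited tables. Per the submitters' processing notes, the authors' tools were DESeq2, HTSeq, HISAT, fastp and R 3.2.0, with the build GRCh38. The sources used here give neither annotation nor strand setting. The deposited counts are raw reads per gene symbol. The FPKM values the authors deposited equal count over gene length and library total for 100% of genes within a relative tolerance of 0.001. Labels call the libraries biological replicates, but separate cultures are not stated, so p-values may measure technical spread.

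Counts were fitted with edgeR 4.0.16 in R 4.3.3 (filterByExpr, minimum count 10; TMM; group only; quasi-likelihood test; Benjamini-Hochberg over 13567 genes). The SE is the log2 fold change over the square root of F. The members and lists were chosen with earlier results of these data known, and the motifs after the sequences were seen. Named genes are the 10 members, up to 4 tested genes of the smallest p in each of 9 other lists, and TNFRSF11B. Also named are 5 genes each closest to CCL2 and IL6. Further markers, IL6-AS1, IL4I1 and untested receptors were named after their values were seen. One marker gene is not reported here. The edgeR step was tested on simulated data. Levels were also set on transcript lengths. Alternatives were other scaling, filters, DESeq2 1.42.0, a replicate block, limma-trend (limma 3.58.1) on log2 FPKM, and each library left out. Replicate pairs within a group differed by 5.13 to 24.7 times sampling noise in chi-square per degree of freedom. Coordinates are those of RefSeq, for which 18832 of 19876 symbols matched.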

Additional observations from a re-analysis of the deposited data

How the results depend on the processing

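The 396 higher and 92 lower genes, and the 1 member called higher, changed with the test and the filter. DESeq2 called 740 higher and 359 lower genes and 3 members, or 761, 346 and 3 on the genes edgeR tested, an alternative chosen after seeing the data. EdgeR called 940, 483 and 4 with no low-count filter, and 205 higher and 26 lower genes at a mean of at least 5 CPM. Limma-trend called 62 higher and 21 lower on log2(FPKM + 1), 64 and 22 on log2(FPKM + 0.1), and 0, 0 and 0 members on log2(FPKM + 1) with no filter, with 3073 genes at an unadjusted p under 0.05. The replicate block gave 774 higher and 252 lower genes and 3 members, CCL2, CXCL1 and IL6. The labels do not say that shared numbers pair the libraries. Deviations of same-numbered libraries from their group means correlated at -0.10, 0.05 and -0.01. With so few libraries in a group, these values cannot settle whether the libraries are paired. With 1 library left out, 9 to 903 genes were higher, 3 to 427 lower, and 0 to 3 members higher. The fewest calls came without PBS replicate 3 (9 and 3) and without PBS replicate 2 (18 and 5), and the most without rhTR11B replicate 1 (903 and 427). The cause was not tested. CCL2 kept its call in 9 of 10 other settings, all but limma-trend with no filter (log2 fold change 0.44 to 0.47). No member was called lower in any of these fits.

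Some signs were not stable. With 1 library left out, the log2 fold change of CXCL3 ran from -0.0177 to 0.373, IL1R1 from -0.00377 to 0.117, ACTA2 from -0.100489 to 0.409 and KRT8 from -0.0476 to 0.00257. Counting error was above the spread between libraries in CSF2 with PBS (12% against 9.94%) and in CCL20 with rhTR11B (6.67% against 5.47%); in the other groups of members it was below it.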
